A study of Mus musculus with 5 samples.

Results

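Fbxo2, Fbxo6, Fbxo17 and Fbxo27 encode F-box proteins with a shared C-terminal FBA domain (F-box associated), and the family is known for receptors of N-linked glycoproteins. They were taken from the deposited F-box sheet by the first gene symbol of each probe set, which gave 4 genes read by 6 probe sets, of 71 cullin and F-box genes read by 130 probe sets in all. The rule itself uses no measured value, but the family was chosen with earlier results of these data known. A probe set is a group of short probes on an Affymetrix array that together read a transcript. Messenger RNA was measured in 5 mouse samples, each a pool from 5 male mice aged 6 months. Left ventricle tissue, isolated cardiomyocytes (CM), non-failing cardiac fibroblasts and lung fibroblasts came from healthy C57Bl/6N mice, and failing cardiac fibroblasts came from beta1-adrenergic transgenic mice with heart failure. Which promoter drives the transgene was not given in the sources used here. This transgenic sample thus differs from the non-failing one in genotype and in disease together, and the effects of these cannot be told apart. With 1 sample per condition no value has a replicate error, no difference could be tested, and every comparison below describes these 5 samples only.

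An F-box protein is the interchangeable receptor of an SCF ubiquitin ligase. Its F-box binds Skp1, which docks on the Cul1 scaffold, while another domain holds the substrate. In the FBA family that domain forms a pocket, and in Fbxo2 and Fbxo6 the pocket holds the inner sugars of N-linked glycans, which are exposed when a glycoprotein is unfolded. These receptors act in the cytosol on glycoproteins exported from the endoplasmic reticulum for degradation. Fbxo2 is known as a protein of neurons and Fbxo6 as a more widely expressed one. Fbxo27 is known for marking damaged lysosomes through their glycoproteins, and Fbxo17 is less studied.

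The family lies at 2 places in the mouse genome. In RefSeq annotation of assembly GRCm38.p6, Fbxo6 spans chr4:148145716-148152135 and Fbxo2 spans chr4:148160198-148166420. Fbxo44, another FBA gene, lies between them, 663 bases from Fbxo6 and 14 bases from Fbxo2. Fbxo27 spans chr7:28692780-28699338 and Fbxo17 spans chr7:28716749-28738145, with 17410 bases and 0 annotated genes between them. Among the 4 members, the pair whose levels ran most alike over the 5 samples was Fbxo2 and Fbxo17, which lie on different chromosomes. For that reason the 250 bases before a RefSeq transcript start of each are shown, 5′ to 3′ on the plus strand of GRCm38.p6. For Fbxo2 they lie at chr4:148160418-148160667, by the 1 start in the promoter table used, and for Fbxo17, by the first of 2, at chr7:28716532-28716781. The gene spans above begin earlier, so all 250 bases of the Fbxo2 window and the last 33 of the Fbxo17 window lie inside the annotated genes, and the 14 bases next to Fbxo44 are counted from the first base of the Fbxo2 gene and not from this start. Capitals mark matches to GGGCGG, the letters of a GC box, on either strand.
Fbxo2: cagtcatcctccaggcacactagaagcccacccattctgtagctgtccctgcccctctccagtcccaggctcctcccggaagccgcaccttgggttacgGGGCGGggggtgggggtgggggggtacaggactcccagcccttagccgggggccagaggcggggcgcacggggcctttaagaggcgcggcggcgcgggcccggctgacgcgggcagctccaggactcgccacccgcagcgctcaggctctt
Fbxo17: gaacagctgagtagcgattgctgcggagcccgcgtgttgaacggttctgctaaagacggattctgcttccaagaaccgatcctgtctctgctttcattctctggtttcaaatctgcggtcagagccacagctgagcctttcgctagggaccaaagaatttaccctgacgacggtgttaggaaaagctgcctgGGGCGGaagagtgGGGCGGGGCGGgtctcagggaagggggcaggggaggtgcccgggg
The Fbxo2 window held 1 such match and the Fbxo17 window 3, with the last 2 overlapping each other. CCAAT and TATAAA, searched on both strands as well, had 0 matches in either window. GGGCGG occurred in 32.7% of the 32817 windows of the same length before RefSeq starts, CCAAT in 33.8% and TATAAA in 12.4%. None of the 3 windows of Fbxo6 held any of these motifs. Of the 4 windows of Fbxo27, 2 that overlap shared the same 1 CCAAT. These matches describe letters and not binding.

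The values are log2 expression levels as deposited. Over all 130 probe sets, sample medians ran from 4.76 in left ventricle to 6.67 in non-failing cardiac fibroblasts. No probe set of either cardiac fibroblast sample lay under 4.76, whereas the minimum was 1.76 for lung fibroblasts, -0.75 for CM and -3.32 for left ventricle, so that low levels are hard to set side by side across samples. Of 14 listed markers of cardiomyocytes, fibroblasts, endothelium and macrophages, 0 were among the genes of the sheets, which hold cullin and F-box genes only. The deposited whole-array intensities were not searched for these markers, so the labelled cell types were not checked.

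Fbxo2, the receptor for high-mannose glycoproteins, was read by the single probe set 1427004_at. Non-failing cardiac fibroblasts had a log2 level of 8.38, failing ones 6.17, lung fibroblasts 5.34, left ventricle 4.80 and CM 4.01. The non-failing sample stood far above the others, and CM stood lowest. The levels in CM and left ventricle lay below 4.82, the lowest value of any probe set in non-failing cardiac fibroblasts.

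Fbxo17 was also read by a single probe set, 1421746_a_at, whose suffix marks probes shared by transcript variants of the same gene. Non-failing cardiac fibroblasts had a level of 8.24, lung fibroblasts 6.89, failing cardiac fibroblasts 6.73, left ventricle 5.92 and CM 4.91. The highest and the lowest sample were those of Fbxo2, while failing cardiac fibroblasts and lung fibroblasts differed by little and stood in the opposite order.

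Fbxo27, the lysosomal damage receptor, was read by 2 probe sets. Probe set 1434122_at read 7.79 for failing cardiac fibroblasts, 7.51 for non-failing ones, 5.36 for CM, 4.80 for lung fibroblasts and 0.58 for left ventricle. Probe set 1447296_at read 5.38, 6.39, 0.79, 3.33 and 0.14 in the same order of samples. Both placed the cardiac fibroblast samples highest and left ventricle lowest. In CM they differed by far more than elsewhere, with an SD of 3.23 over the 2 probe sets, against 0.32 to 1.71 in the other samples. The mean, used as the level of the gene, was 6.95 for non-failing cardiac fibroblasts (SD 0.79), 6.58 for failing ones (SD 1.71), 4.06 for lung fibroblasts (SD 1.03), 3.08 for CM and 0.36 for left ventricle (SD 0.32). The highest samples, non-failing and failing cardiac fibroblasts, differed by less than this spread, as did CM and lung fibroblasts. The deposited linear intensities behind the left ventricle values were 1.5 and 1.1. Turned back to the linear scale, all 6 member log2 levels of that sample had 1 decimal at most, against 0 of 6 in each other sample. Left ventricle values thus had another form than the rest, for which no reason was given in the sources used here.

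Fbxo6, the widely expressed glycoprotein receptor, was read by 2 probe sets that ran in different ways. Probe set 1417501_at was highest in left ventricle, at 7.48, followed by 6.85 in CM, while lung fibroblasts had 6.09, failing cardiac fibroblasts 6.08 and non-failing ones 6.00. By this probe set the left ventricle and CM samples stood above all fibroblast samples, which were nearly equal. Probe set 1447671_x_at, whose suffix marks probes that can also match other sequences, was highest in non-failing cardiac fibroblasts, at 7.46, followed by CM at 5.85, failing cardiac fibroblasts at 5.49, left ventricle at 4.54 and lung fibroblasts at 4.51. Non-failing cardiac fibroblasts had a mean of 6.73 (SD 1.03 over the 2 probe sets), CM 6.35 (SD 0.70), left ventricle 6.01 (SD 2.08), failing cardiac fibroblasts 5.79 (SD 0.41) and lung fibroblasts 5.30 (SD 1.12). Neighbours in this order lay closer together than the spread of the probe sets, with the SD of at least 1 of the 2 samples, so the order of the means is not settled.

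**Figure D1:**
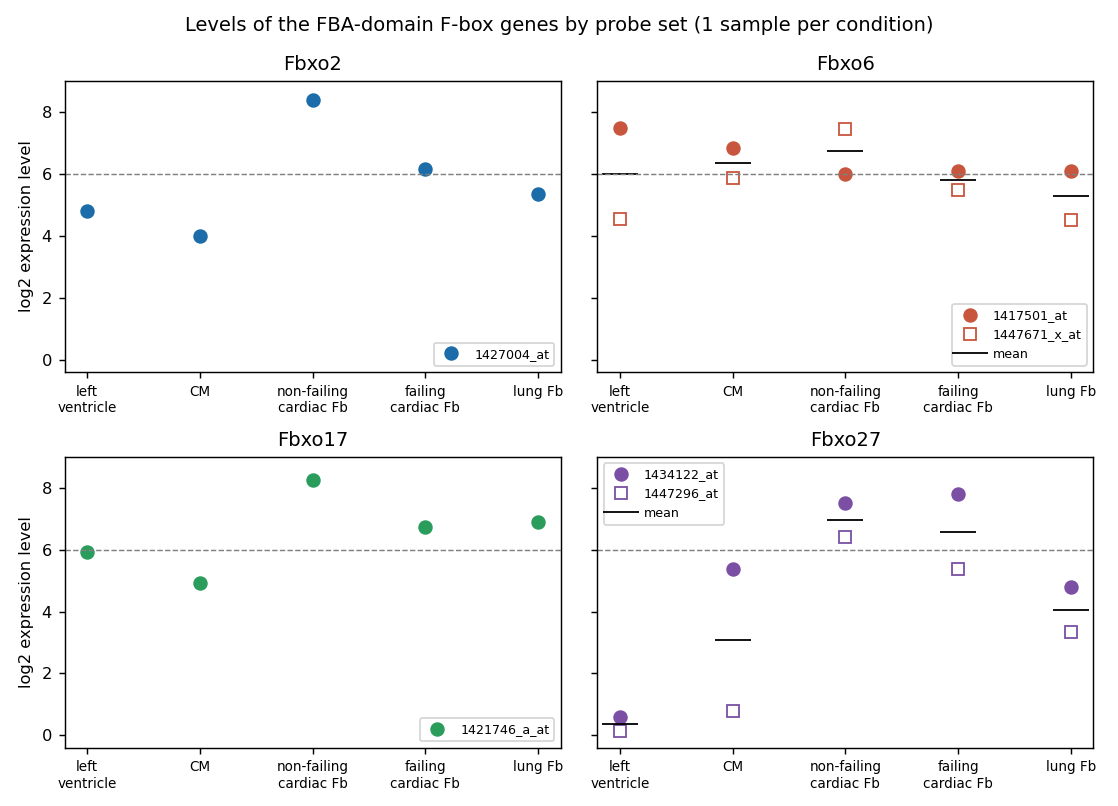
Log2 expression level (vertical axis) of each probe set of Fbxo2, Fbxo6, Fbxo17 and Fbxo27 in the 5 samples (horizontal axis; Fb, fibroblasts), with filled and open symbols for different probe sets, black bars for the mean of a gene's probe sets and a dashed line at 6.0. Fbxo2 and Fbxo17 peak at 8.38 and 8.24 in non-failing cardiac fibroblasts, and the probe sets of Fbxo6 run apart, at 7.48 and 4.54 in left ventricle.

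All 4 members had their highest mean level in non-failing cardiac fibroblasts. This was so for 22 of the 71 genes, or 31%. By single probe sets it held for 4 of the 6 of the family, against 24.6% of all 130, the exceptions being 1417501_at of Fbxo6 and 1434122_at of Fbxo27. Other scalings of the 5 samples gave them an equal median over the 130 probe sets, by adding a constant to each, or the same distribution, by quantile normalization. With equal medians, 3 members kept that place, against 15.5% of all genes, and with quantile normalization 3, against 19.7%, since the level of Fbxo6 was then highest in left ventricle. Levels were also read against 6.0, the manufacturer's mark of relevant expression, and 6.5, that of strong expression. By mean level, all 4 members reached 6.0 in non-failing cardiac fibroblasts, where 74.6% of the 71 genes did. All 4 means also exceeded 6.5, where 64.8% did. Not every probe set did so there. Probe set 1417501_at of Fbxo6 read 5.9996, just under 6.0, and 1447296_at of Fbxo27 read 6.39, under 6.5. In failing cardiac fibroblasts 3 members reached 6.0 (73.2% of the genes), all but Fbxo6. In CM this was 1 member, Fbxo6 (53.5% of the genes), and the same member alone reached it in left ventricle (33.8%), at 6.01. Lung fibroblasts had only Fbxo17 at this level (49.3%). Mean levels over 6.5 were those of Fbxo17 and Fbxo27 in failing cardiac fibroblasts (54.9% of the genes) and of Fbxo17 in lung fibroblasts (39.4%). In CM (43.7%) and in left ventricle (28.2%) 0 members had such a mean. Probe set 1417501_at of Fbxo6 alone did exceed 6.5 in both, at 6.85 in CM and 7.48 in left ventricle.

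Differences were called at 2-fold or more, which is 1 on the log2 scale, where the higher of both samples reached 6.0. Between CM and non-failing cardiac fibroblasts, 3 of the 4 members were called lower in CM, against 36.6% of the 71 genes, and 0 higher, against 21.1%. The level of Fbxo2 differed by -4.38 on the log2 scale, 20.8-fold, and stood at place 10 from the lowest of the 71 differences. Fbxo27 differed by -3.87, at place 13, and both of its probe sets were lower in CM, by -2.14 and -5.60. Of the 32 genes with several probe sets, 40.6% had all of them in 1 direction in this pair. Fbxo17 differed by -3.33, 10.1-fold, at place 15. Fbxo6 differed by only -0.38, from 0.85 by 1417501_at and -1.60 by 1447671_x_at. The median difference of the 4 members was -3.60 and that of all genes -0.51. In CM the probe set of Fbxo2, at 4.01, and 1447296_at of Fbxo27, at 0.79, read below the 4.82 that was the minimum in non-failing cardiac fibroblasts, whereas 1434122_at of Fbxo27, at 5.36, read above it. The part of these unequal minima in the differences was not tested. The samples also differed in spread. With quantile normalization, which gives all samples the same distribution, the differences were -4.61 for Fbxo2, -3.72 for Fbxo17, -2.76 for Fbxo27 and 0.19 for Fbxo6.

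Between failing and non-failing cardiac fibroblasts, whose low ends were close to each other, 2 of the 4 members were called lower in the failing sample, against 22.5% of the genes, and 0 were called higher, against 19.7%. Fbxo2 differed by -2.21, 4.63-fold, which was the second lowest of the 71 differences. Fbxo17 differed by -1.51, 2.85-fold, at place 8 from the lowest. Both stayed called with either scaling, at -2.05 and -1.35 for equal medians and at -3.17 and -2.26 after quantile normalization, where 19.7% and 22.5% of the genes were called lower. Fbxo27 differed by -0.37, with 0.28 by 1434122_at and -1.01 by 1447296_at, and Fbxo6 by -0.94, with 0.080 by 1417501_at and -1.96 by 1447671_x_at. For both genes the difference was smaller than the SD of the differences of its probe sets, 0.92 and 1.44. All probe sets ran in 1 direction in 31.2% of the 32 genes with several.

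Lung fibroblasts were set against the same non-failing cardiac fibroblast sample, so that a high or low value there enters all 3 comparisons. All 4 members were called lower in lung fibroblasts, against 42.3% of the genes, and the median difference of all genes was itself -1.08. Fbxo2 differed by -3.04, 8.22-fold, and Fbxo27 by -2.88, 7.38-fold, with its probe sets close together at -2.71 and -3.06. These stood at places 9 and 10 from the lowest, and all probe sets ran in 1 direction in 25% of the genes with several. Fbxo6 differed by -1.43, which rested on 1447671_x_at at -2.95, since 1417501_at differed by 0.086. In lung fibroblasts both probe sets of Fbxo27, at 4.80 and 3.33, and 1447671_x_at, at 4.51, read below 4.82. That was the minimum in non-failing cardiac fibroblasts, and its part in these differences was not tested. Fbxo17 differed by -1.35, at place 30. The difference of Fbxo17 was -0.95 with equal medians and that of Fbxo6 -0.83 with quantile normalization, so that each then fell short of 2-fold.

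Between CM and lung fibroblasts, 1 member was called in each direction, against 16.9% of the genes called higher and 18.3% called lower in CM. Fbxo6 was higher in CM by 1.05, 2.07-fold, with both probe sets in that direction, by 0.76 and 1.35. With the highest probe set in place of the mean, the difference was 0.76 and was not called. All probe sets ran in 1 direction in 46.9% of the genes with several. Fbxo17 differed by -1.98, 3.95-fold lower in CM. Fbxo2 differed by -1.34 and Fbxo27 by -0.99, with levels under 6.0 in both samples.

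Left ventricle tissue, which contains CM beside fibroblasts and other cells, was set against isolated CM. A tissue level cannot tell a different share of cells from a different amount of mRNA per cell. None of the 4 members was called, against 14.1% of the genes called higher and 31% called lower in left ventricle. Fbxo17 differed by 1.01 and Fbxo2 by 0.80, where the median of all genes was -0.98, and both stayed under 6.0 in both samples. Fbxo27 differed by -2.72, between levels of 0.36 and 3.08, with -4.78 by 1434122_at and -0.66 by 1447296_at, where 37.5% of the genes with several probe sets had all in 1 direction. Fbxo6 differed by -0.34, with 0.63 by 1417501_at and -1.31 by 1447671_x_at. These values rested on the scaling, since equal medians moved left ventricle by 1.33 and CM by -0.14. The differences were then 2.26 for Fbxo2, 2.48 for Fbxo17 and 1.13 for Fbxo6, all called higher in left ventricle, where 38% of the 71 genes were called higher and the median of all genes was 0.49. Fbxo27 differed by -1.25. With quantile normalization Fbxo2 and Fbxo17 were called higher, against 29.6% of the genes, while Fbxo6 differed by 0.71 and was not called, and Fbxo27 differed by only -0.07.

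**Figure D2:**
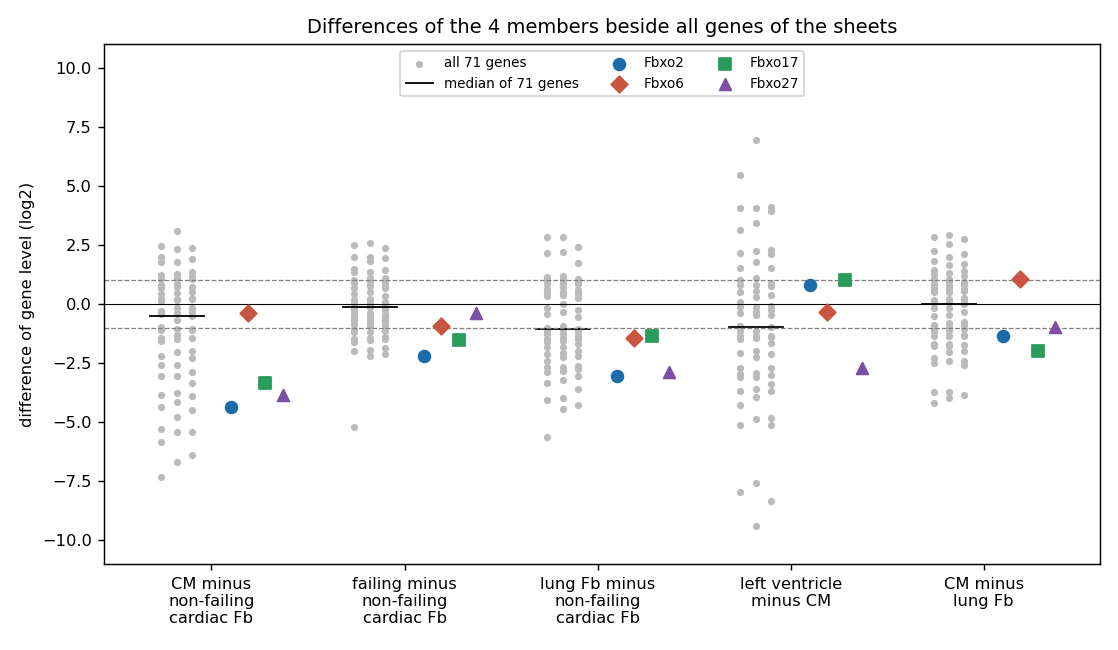
Difference of gene level on the log2 scale (vertical axis) in 5 pairs of samples (horizontal axis), with grey points for all 71 genes, a black bar for their median, coloured symbols for the 4 members and dashed lines at 2-fold. Fbxo2, Fbxo17 and Fbxo27 lie at -4.38, -3.33 and -3.87 in CM against non-failing cardiac fibroblasts, while Fbxo6 lies at -0.38.

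**Figure D3:**
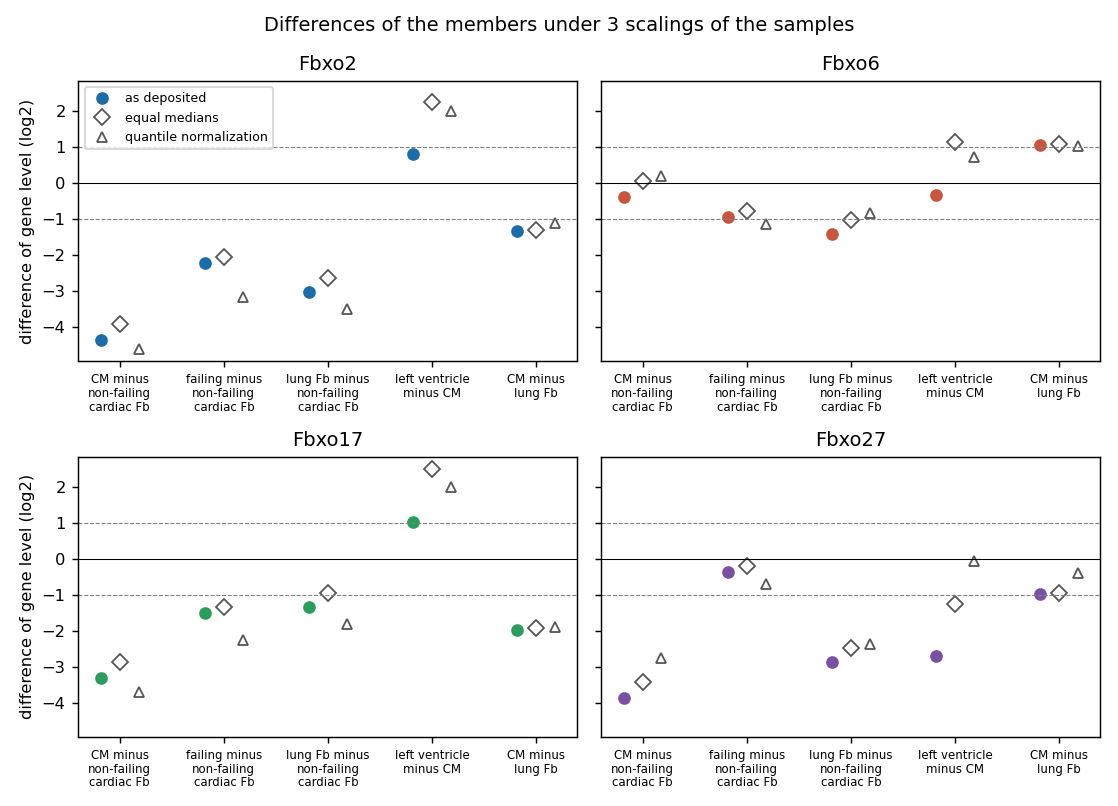
The same differences of the 4 members (vertical axis, log2) in the 5 pairs (horizontal axis) with levels as deposited (filled), equal medians (diamonds) and quantile normalization (triangles) over the 130 probe sets. Against non-failing cardiac fibroblasts Fbxo2, Fbxo17 and Fbxo27 stay below 0 throughout, while left ventricle minus CM moves for Fbxo2 from 0.80 to 2.26 with equal medians.

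Profiles were compared by the root mean square (RMS) difference of 2 genes over the 5 samples, after the mean of each gene was taken off. A value of 0 means parallel profiles. The median over all 2485 pairs of the 71 genes was 1.96 on the log2 scale and over the 6 pairs within the family 1.48. Fbxo2 and Fbxo17 were each the gene most like the other, with an RMS difference of 0.57, at place 49 among all pairs. There were 17 such mutually nearest pairs among the 71 genes. After Fbxo17, Fbxo2 was most like Fbxo41, a neuronal F-box protein, at 0.70 and Fbxl7, known for acting on Aurora A and survivin, at 0.91. After Fbxo2, Fbxo17 was most like Fbxo45, a synaptic F-box protein, at 0.84 and Fbxl7 at 0.88.

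Fbxo27 was most like Fbxo44 at 0.93, Cul9, a cullin that binds p53, at 0.96 and Fbxl7 at 1.12. The profiles of Fbxo27 and Fbxo44 are each the mean of 2 probe sets that stood far apart in 1 sample. Those of Fbxo27 read 5.36 and 0.79 in CM, and those of Fbxo44 read 6.57 and 2.86 in lung fibroblasts. The other members lay at 1.59 from Fbxo27 for Fbxo2, 1.83 for Fbxo17 and 2.37 for Fbxo6. With quantile normalization Fbxo44 fell to place 19 in likeness to Fbxo27, at 1.35, and Fbxl7 came first at 0.51. Fbxo6 was most like Fbxw4, linked to limb malformation in mice, at 0.26, which was the smallest of all 2485 differences, and then Fbxo31, which acts on cyclin D1, at 0.35 and Fbxo3, which acts on another F-box protein, Fbxl2, at 0.65. Fbxw4 had its highest level in non-failing cardiac fibroblasts, 7.13, then 6.96 in CM, 6.48 in failing cardiac fibroblasts, 6.05 in lung fibroblasts and 6.04 in left ventricle. The profile of Fbxo6 used here is the mean of 2 probe sets that ran in different ways. Fbxo31 fell to place 29 with quantile normalization, at 1.26.

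**Figure D4:**
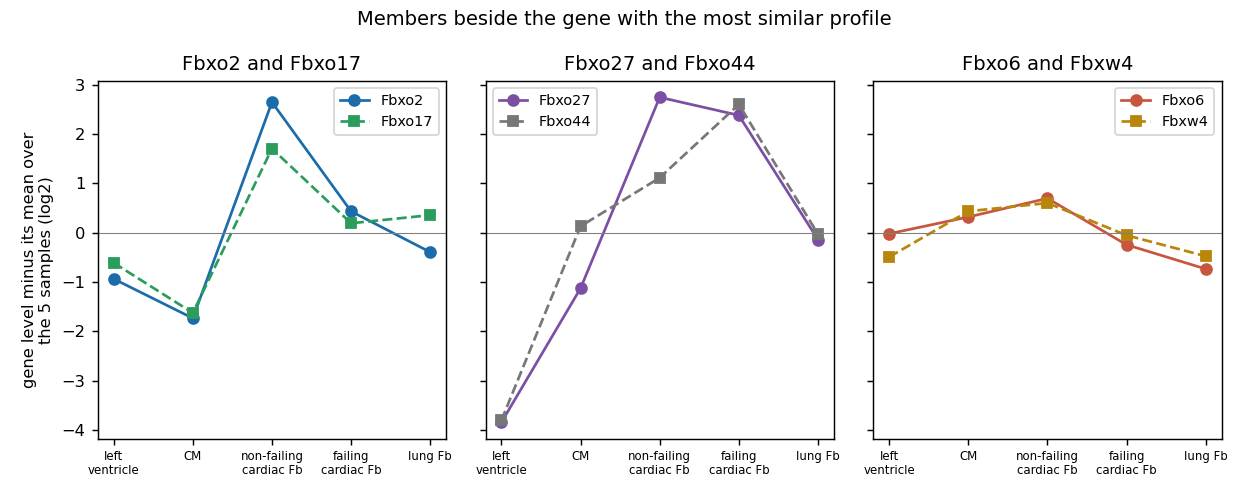
Gene level minus its mean over the 5 samples (vertical axis, log2) by sample (horizontal axis) for Fbxo2 with Fbxo17, Fbxo27 with Fbxo44 and Fbxo6 with Fbxw4, the most similar gene in each case. The pairs differ by an RMS of 0.57, 0.93 and 0.26, and Fbxo2 and Fbxo17 share their peak in non-failing cardiac fibroblasts.

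Of 22 listed genes of the SCF core and of glycoprotein quality control, 2 were in the sheets, Fbxo44 and Cul1. Fbxo44 has the FBA domain and is known in human cells for acting on BRCA1. Its mean level was highest in failing cardiac fibroblasts, 7.34, against 5.85 in non-failing ones, 4.87 in CM, 4.71 in lung fibroblasts and 0.94 in left ventricle. In lung fibroblasts its 2 probe sets read 6.57 and 2.86 (SD 2.62), so the order of CM and lung fibroblasts is not settled. Fbxo44 was called higher in failing than in non-failing cardiac fibroblasts, by 1.49, with 0.87 and 2.10 by its probe sets. In that pair its neighbours on chromosome 4, Fbxo2 and Fbxo6, differed by -2.21 and -0.94. Cul1, the SCF scaffold with 1 probe set, stood at 9.38 in CM and 8.73 in lung fibroblasts, against 6.31 in the non-failing and 5.63 in the failing cardiac fibroblast sample. In left ventricle it was listed at 0 on the log2 scale.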

How the data were processed

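The authors deposited log2 expression levels of 5 samples for the probe sets of the cullin and F-box genes, and a whole-array table of linear intensity. How background, probe summary and normalization between arrays were handled was not given in the sources used here. Precision is limited by the number of arrays, 1 per condition. All 6 member probe sets matched between both forms, within 1% or 0.01 units of intensity. Columns of the authors' own differences between samples were not used.

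Log2 values of a gene's probe sets were averaged. The 4 members and the list of 22 pathway genes, with Fbxo44, were chosen with earlier results of these data known, and so were the motifs. Named were the members, the 3 genes most like each, and listed genes found in the sheets. Alternatives were the median or highest probe set, leaving out _s_at and _x_at probe sets, the whole-array table, equal medians, quantile normalization, 1.5-fold, no level rule and a threshold of 6.5. All 5 names, of the members and Fbxo44, were found in RefSeq (GRCm38.p6), which also gave the promoter windows. Python 3.11.15, pandas 2.3.3, NumPy 2.4.6, SciPy 1.17.1 and matplotlib 3.10.9 were used, and the functions were tested on simulated data.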

Additional observations from a re-analysis of the deposited data

How the results depend on the processing

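No paired analysis was possible because the conditions were measured once each. Of 120 differences recomputed, 11 changed sign, of which 1 had been called: without _x_at probe sets Fbxo6 in lung against non-failing cardiac fibroblasts was 0.086. All sign changes were in Fbxo6 and Fbxo27. Many of the 120 could not change. A gene with 1 probe set has the same mean, median and highest value, and the median of 2 probe sets is their mean. The whole-array intensities hold the same values on the linear scale. The total of 120 thus overstates how far the signs were tried. Each count of members stands here beside the share of all 71 genes under the same setting. Between left ventricle and CM, 1 member was 2-fold higher (23.9% of the genes) and 1 lower (49.3%) with no level rule, 3 were higher with equal medians (38%), and quantile normalization gave 2 (29.6%). With the highest probe set 0 members were higher in CM than in lung fibroblasts (12.7%), and with no level rule 2 were lower (35.2%). At 6.5 the count of members with a mean level over the threshold was 0 in left ventricle (28.2%) and 0 in CM (43.7%). Probe set 1417501_at of Fbxo6 alone read over it there, at 7.48 and 6.85. Members reaching 6.0 numbered 3 in left ventricle with equal medians (47.9%) and 2 in lung fibroblasts with the highest probe set (63.4%). The cause of these shifts was not tested, apart from the looser or stricter rules. Equal medians moved left ventricle by 1.33 and non-failing cardiac fibroblasts by -0.58. They cannot change the RMS difference of 2 genes. Quantile normalization of the RMS differences was added after seeing the data. The other 60 recomputed counts stayed within 1.5 times, a bound that still lets a count of 2 or more members change by 1. Such changes occurred for members reaching the threshold in failing cardiac fibroblasts. They also occurred for members called lower in failing or in lung fibroblasts than in non-failing cardiac fibroblasts. Signal over background was not given, which limits the reading of low levels.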
